A study of Mus musculus with 10 samples.

Results

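The integrin and laminin subunit genes are 36 genes of the 52550 in the deposited gene table of mouse embryonic fibroblasts, chosen by gene symbol: the integrin alpha genes (Itga1 to Itga11, Itga2b, Itgav, Itgad, Itgae, Itgal and Itgax, 17 in all), the integrin beta genes (Itgb1 to Itgb8, 8 genes) and the laminin chain genes (11 genes named Lama, Lamb or Lamc). No measured value entered that choice. Total RNA of C57BL/6 fibroblasts derived at embryonic day 14 and grown to passage 3 was depleted of ribosomal RNA and sequenced as directional libraries, 5 from male and 5 from female cells, with no treatment. The sexes were the only groups. Nothing in the labels states that replicates are different embryos or dishes, and every p-value therefore measures the spread between these libraries, which may be technical.

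Integrins are receptors of the cell surface made of an alpha and a beta subunit, and both chains must be made for either to reach the membrane in quantity. The pair sets the ligand: fibronectin and other proteins with an Arg-Gly-Asp motif, collagens, or laminins. Laminins are the cross-shaped proteins of basement membranes, each a trimer of an alpha, a beta and a gamma chain, and the alpha chain carries the main sites that integrins bind.

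Levels are given as RPKM, the unique exon reads of a gene per kilobase of exon length relative to the unique exon reads of the library, scaled between libraries by edgeR's TMM method. Only this scale, which divides by length, was used to compare 1 gene with another. A library held 22588200 to 32744611 unique exon reads and 30662616 to 45859721 unique gene reads, exons and introns together. All 10 genes of a fibroblast list (Col1a1, Col1a2, Col3a1, Pdgfra, Pdgfrb, Thy1, Dcn, Lum, Vim and Fn1) had a mean above 1 RPKM. Of the lymphocyte markers 0 of 5 reached 1 RPKM. Of the endothelial markers 3 of 10 did (Flt1 6.80, Kdr 3.51 and Emcn 1.05 RPKM), with Pecam1 at 0.0326, and of the platelet markers 2 of 5 (Ppbp 11 and Gp1bb 1.29 RPKM), with Gp9 at 0.0235. Of the epithelial markers 3 of 8 did (Krt19 50.8, Krt18 8.40 and Krt7 1.09 RPKM), with Cdh1 at 0.0374. Of the skeletal muscle markers 2 of 8 did (Acta1 48.2 and Des 32.0 RPKM), and of the Schwann cell markers 2 of 5 (Sox10 1.63 and Foxd3 1.01 RPKM). Of 12 macrophage markers, 9 reached 1 RPKM, led by Lyz2 at 39.7 RPKM. In bulk RNA, fewer cells that make a transcript and less of it per cell cannot be told apart.

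The promoter windows of 5 members are shown because the results turn on them: Itgb1 is the most abundant subunit gene, Itga11 and Itga4 varied together across the libraries, Itga3 varied the other way, and Lama5 had the smallest p between the sexes. Each window runs from 250 bases before to 50 bases after a start site of RefSeq on GRCm38.p6, written 5′ to 3′ on the gene's strand. Capitals mark the GC box GGGCGG or its reverse complement CCGCCC. The windows lie at chr8:128685404-128685703 (Itgb1, plus strand), chr9:62677605-62677904 (Itga11, plus), chr2:79255176-79255475 (Itga4, plus), chr11:95076665-95076964 (Itga3, minus, 1 of 2 entries) and chr2:180225810-180226109 (Lama5, minus).
Itgb1: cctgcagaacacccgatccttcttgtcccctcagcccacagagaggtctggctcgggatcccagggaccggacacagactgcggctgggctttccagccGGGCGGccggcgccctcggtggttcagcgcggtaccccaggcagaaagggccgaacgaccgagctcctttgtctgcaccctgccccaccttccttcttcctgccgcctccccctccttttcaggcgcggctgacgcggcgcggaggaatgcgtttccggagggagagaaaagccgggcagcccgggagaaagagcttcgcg
Itga11: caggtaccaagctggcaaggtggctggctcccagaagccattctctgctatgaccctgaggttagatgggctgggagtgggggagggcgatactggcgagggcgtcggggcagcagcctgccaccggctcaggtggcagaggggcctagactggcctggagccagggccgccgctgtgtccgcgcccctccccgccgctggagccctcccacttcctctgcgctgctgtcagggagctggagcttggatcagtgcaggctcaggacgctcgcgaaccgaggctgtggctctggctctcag
Itga4: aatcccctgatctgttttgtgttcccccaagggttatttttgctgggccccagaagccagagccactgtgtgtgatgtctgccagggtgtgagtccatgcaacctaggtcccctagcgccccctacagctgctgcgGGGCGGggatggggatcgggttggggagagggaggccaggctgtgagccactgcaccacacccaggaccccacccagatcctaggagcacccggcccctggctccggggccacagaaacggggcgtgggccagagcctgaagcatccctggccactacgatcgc
Itga3: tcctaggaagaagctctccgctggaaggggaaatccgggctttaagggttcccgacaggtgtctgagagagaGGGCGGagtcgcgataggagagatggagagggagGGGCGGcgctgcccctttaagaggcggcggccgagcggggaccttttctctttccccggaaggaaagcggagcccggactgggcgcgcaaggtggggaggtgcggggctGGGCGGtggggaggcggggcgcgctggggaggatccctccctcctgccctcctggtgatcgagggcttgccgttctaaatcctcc
Lama5: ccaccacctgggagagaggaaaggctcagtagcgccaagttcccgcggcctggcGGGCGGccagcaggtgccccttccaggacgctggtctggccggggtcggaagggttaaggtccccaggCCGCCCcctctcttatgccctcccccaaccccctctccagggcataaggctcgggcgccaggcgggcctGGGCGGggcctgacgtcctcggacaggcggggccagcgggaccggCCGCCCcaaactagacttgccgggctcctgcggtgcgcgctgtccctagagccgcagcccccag

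The GC box count was 1 in Itgb1, 0 in Itga11, 1 in Itga4, 3 in the Itga3 window shown and 4 in Lama5. Of the 36 members, 22 matched a promoter entry. Among those with 1 entry, the 13 members with a mean of at least 1 RPKM had a median of 16 CpG in the window and 8 of them (61.54%) held the GC box, while the 6 members below 1 RPKM had a median of 6 CpG and 1 of them (16.67%) held it. Over all 32851 windows of 300 bases the median was 7 CpG and 35.66% held the box. Not every window lies at the start of the deposited gene span. The Itga9 window begins at chr9:118711442, while its span on the plus strand begins at 118606690. The Lama2 window ends at chr10:27617192, while its span on the minus strand ends at 27619758. A match of these letters is a description and not a mapped binding site.

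The fibroblasts had 20 of the 36 genes at or above 1 RPKM on average, and the same 20 reached it in every one of the 10 libraries: 10 of 17 alpha genes, 3 of 8 beta genes and 7 of 11 laminin genes. Itgb1 alone made up 85.9% of the summed beta RPKM, and Itga5 and Itgav made up 82.3% of the summed alpha RPKM. Lamb1 and Lamc1 led the laminin genes. The lowest genes above the line were Itga1 (1.53 RPKM) and Itga9 (1.57 RPKM), and the highest below it were Itgb2 (0.887 RPKM) and Itgb8 (0.850 RPKM).

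**Figure D1:**
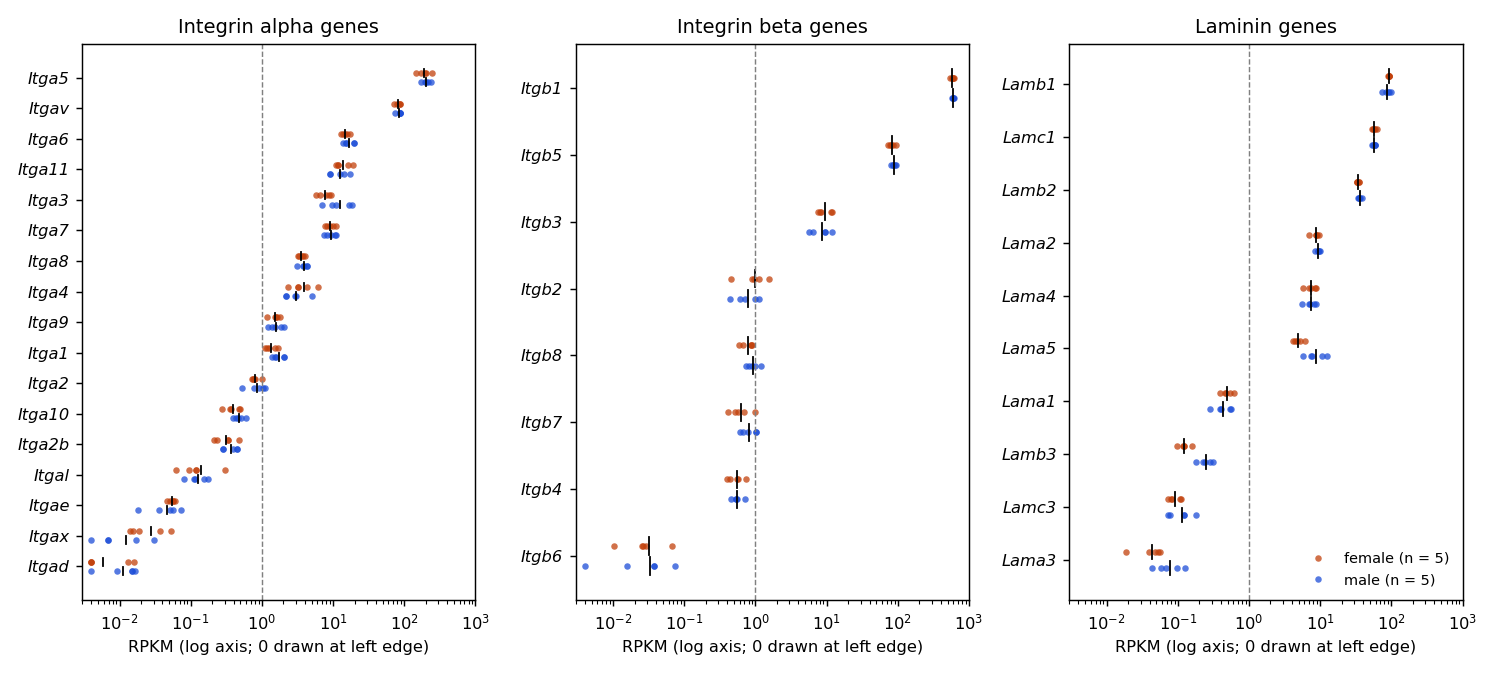
RPKM on a log axis of each integrin alpha, integrin beta and laminin gene in each library (points, female orange and male blue; black bar, mean of 5 libraries; dashed line, 1 RPKM; 0 is drawn at the left edge). Itgb1 at 533 to 611 RPKM stands above every other subunit gene, and 19 of the 35 genes drawn have all 10 points to the right of the dashed line.

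Itgb1 (ENSMUSG00000025809, chr8:128685654-128733200 on mm10) encodes the beta chain that pairs with the largest number of alpha chains. It stood at 592, 579, 608, 589.6 and 533 RPKM in female libraries 1 to 5 and at 596, 602, 611, 602 and 578 RPKM in male libraries 1 to 5. The libraries of the sexes overlapped, and the coefficient of variation over the 10 libraries, 3.86%, was the lowest among the 20 genes. Of the 16602 genes tested, 39 had a higher mean than its 589 ± 22.8 RPKM (SD, n = 10).

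Itgb5 (chr16:33829665-33949153), which pairs with Itgav in a vitronectin receptor, stood at 85.9, 95.5, 79.1, 78.7 and 73.3 RPKM in females and at 95, 84.7, 79.3, 92.3 and 85.3 RPKM in males. Itgb3 (chr11:104608000-104670476), the beta chain that Itgav shares with the platelet subunit Itga2b, stood at 11.6, 12, 7.63, 8.14 and 8.42 RPKM in females and at 11.9, 9.42, 5.72, 9.52 and 6.51 RPKM in males. Itgb3 was highest in females 1 and 2 and male 1 and lowest in male 3, and the sexes overlapped for both genes. Itgb5 exceeded Itgb3 by 9.78 ± 2.16 times (SD, n = 10), from 7.43 to 13.9 times.

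The other 5 beta genes were below 1 RPKM on average. Itgb2, the chain of leukocyte integrins, had 0.887 ± 0.342 RPKM, Itgb8, a partner of Itgav in the activation of latent TGF-beta, 0.850 ± 0.169 RPKM, and Itgb7, a lymphocyte chain, 0.725 ± 0.215 RPKM. Itgb4, the hemidesmosome chain of epithelia, had 0.548 ± 0.107 RPKM, and Itgb6, an epithelial partner of Itgav, 0.0322 ± 0.0234 RPKM (SD, n = 10 for each). Introns gave 85.7% of the unique gene reads of Itgb6, so most of its few reads were not from exons. Neighbours in the order from Itgb2 down to Itgb4 were not separated, since in each adjacent pair the ranges of the 10 libraries overlapped.

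Among the alpha genes, Itga5 (chr15:103344286-103366763), whose pair with Itgb1 is the classical fibronectin receptor, stood at 170.1, 146, 193, 204 and 243 RPKM in females and at 173, 199, 193, 215 and 239.7 RPKM in males. Itgav (chr2:83724397-83806916), which pairs with several beta chains to bind Arg-Gly-Asp motifs, stood at 87.8, 85.5, 80.3, 86.1 and 71.2 RPKM in females and at 86.4, 86.4, 85.8, 86.2 and 73.6 RPKM in males. Replicate 5 was the highest for Itga5 and the lowest for Itgav in each sex, and the sexes overlapped for both. Itga5 was above Itgav in all 10 libraries, and both were above every other alpha gene with no overlap of ranges.

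Of the 3 laminin-binding alpha genes, Itga6 (chr2:71745616-71858416) stood at 13.7, 12.7, 15.5, 14.9 and 17.1 RPKM in females and at 13.9, 15.1, 19.8, 15.1 and 19.4 RPKM in males. Itga3 (chr11:95044474-95076801), whose pair with Itgb1 prefers laminins with the Lama3 or Lama5 chain, stood at 6.48, 5.75, 8.08, 8.70 and 9.28 RPKM in females and at 6.97, 9.80, 16.5, 11.1 and 18.6 RPKM in males. Itga7 (chr10:128933818-128958282), known mainly as the laminin receptor of muscle, stood at 9.98, 10.9, 7.80, 8.20 and 8.94 RPKM in females and at 11.1, 9.21, 7.34, 8.14 and 10.5 RPKM in males. Males 3 and 5 were the highest libraries for both Itga6 and Itga3, and male 3 was the lowest for Itga7. Among the 20 genes, Itga3 had the highest coefficient of variation, 42.0%, against a median of 14.8%.

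Among the 4 collagen-binding alpha genes, Itga11 (chr9:62677826-62783982), a fibrillar collagen receptor of fibroblasts, stood at 16.1, 19, 11, 11.7 and 11.6 RPKM in females and at 17.1, 12.5, 9.18, 14.4 and 9.13 RPKM in males. It gave 81.6 ± 5.26% (SD, n = 10) of the summed RPKM of these 4 genes, and its highest libraries were female 2, male 1 and female 1. Itga1, a receptor for collagen IV, had 1.53 ± 0.329 RPKM, Itga2 0.834 ± 0.170 RPKM and Itga10, known from cartilage, 0.436 ± 0.0934 RPKM. For Itga10 only 47.4% of the exon reads were unique to the gene, the lowest share of any alpha gene.

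The remaining alpha genes at or above 1 RPKM were Itga8, which binds nephronectin (3.74 ± 0.428 RPKM), Itga4, which binds Vcam1 and fibronectin (3.45 ± 1.30 RPKM), and Itga9, a tenascin receptor (1.57 ± 0.266 RPKM). For Itga9, 71.4% of the exon reads were unique, the lowest share among the 20 genes, and 58.6% of the unique gene reads were intronic. Several neighbours in the alpha order were not resolved: the ranges of Itga6 and Itga11, Itga11 and Itga3, Itga3 and Itga7, Itga8 and Itga4, and Itga9 and Itga1 overlapped. These overlaps rest on the deposited exon lengths, 9025 bases for Itga6 and 5131 for Itga11. The transcripts with the longest coding part have 4156 and 4969 bases, which would raise Itga6 by more than Itga11.

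Alpha genes known from blood cells were low. Itga2b, of platelets and megakaryocytes, had 0.344 ± 0.0920 RPKM, Itgal 0.133 ± 0.0668, Itgae 0.0506 ± 0.0147, Itgax 0.0201 ± 0.0161 and Itgad 0.00846 ± 0.00755 RPKM (SD, n = 10). Introns gave 92.3% of the unique gene reads of Itgae. The leukocyte gene Itgam fell outside the symbol rule because the table lists it as the overlapping entries Itgam_1 and Itgam_2. Of the 660 exon reads of Itgam_1 over all libraries only 34 were unique, so its unique level says little about the gene.

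The main beta and gamma chains of laminin were higher than the alpha chains. Lamb1 (chr12:31265234-31329644) stood at 92.6, 92.5, 93.5, 93.0 and 88.5 RPKM in females and at 90.8, 93.5, 83.7, 97.6 and 73.4 RPKM in males. Lamc1 (chr1:153218922-153332786), the gamma chain of most laminins, stood at 58.0, 62.0, 54.7, 57.9 and 54.2 RPKM in females and at 59.0, 58.6, 55.7, 58.7 and 53.2 RPKM in males. Male 5 was the lowest library for both. Lamb2 (chr9:108479736-108490530), a beta chain known from neuromuscular and kidney basement membranes, stood at 32.6, 34.6, 33.2, 33.4 and 35.1 RPKM in females and at 33.7, 35.3, 36.0, 35.1 and 38.4 RPKM in males. Lamb1, Lamc1 and Lamb2 came in that order in all 10 libraries with no overlap of ranges between neighbours, while the sexes overlapped for each.

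Lama2 (chr10:26980036-27619758), the chain of muscle and nerve basement membranes, stood at 8.82, 9.0, 8.78, 9.63 and 6.96 RPKM in females and at 9.30, 9.52, 9.88, 9.29 and 8.45 RPKM in males. Lama4 (chr10:38965515-39110188), known from vessel walls and mesenchyme, stood at 7.43, 8.70, 5.82, 7.05 and 8.32 RPKM in females and at 8.87, 6.94, 5.51, 8.06 and 7.17 RPKM in males. Lama5 (chr2:180176373-180225859), the most widely distributed alpha chain of adult tissues, stood at 4.12, 4.39, 5.24, 6.08 and 4.71 RPKM in females and at 7.48, 5.82, 12.3, 7.63 and 10.7 RPKM in males. Lama5 was highest in males 3 and 5, and the sexes overlapped only through female 4 and male 2. The 3 genes made 97.8% of the summed Lama RPKM, and the ranges of neighbours among them overlapped, so on this scale no order holds over all libraries. Their closeness depends on the length used. The deposited exon lengths are 16338 bases for Lama2, 12068 for Lama4 and 11388 for Lama5. The transcripts with the longest coding part have 9614, 6046 and 11388 bases, which would raise Lama2 and Lama4 but not Lama5.

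The remaining laminin genes described here were low. Lamb3 and Lama3, known from the basement membrane of the epidermis, had 0.185 ± 0.0753 and 0.0606 ± 0.0306 RPKM. Lama1, the early embryonic alpha chain, had 0.464 ± 0.0978 RPKM and Lamc3 0.102 ± 0.0337 RPKM (SD, n = 10). Some members are neighbours on a chromosome: Itga1 and Itga2 lie 20995 bases apart on chromosome 13, and Itgax and Itgad 3718 bases apart on chromosome 7.

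An integrin pair or laminin trimer known from textbooks was counted as allowed where every chain reached 1 RPKM in every library. By that count 12 of 24 integrin pairs and 6 of 13 laminin trimers were allowed. This is a statement about transcripts, and no protein was measured. With thresholds of 0.5 and 2 RPKM the pairs numbered 14 and 10, and the trimers 6 at either threshold.

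Itgb1 took part in 10 of the 12 pairs, with Itga1, Itga3, Itga4, Itga5, Itga6, Itga7, Itga8, Itga9, Itga11 and Itgav, and was above its partner in all 10 libraries each time. It exceeded Itga5 by 3.05 times on average, Itgav by 7.13 times, Itga6 by 38.2 times and Itga1 by 398 times. Its RPKM was 1.74 ± 0.167 times (SD, n = 10) the summed RPKM of all 12 alpha genes that can pair with it, and at least 1.43 times in every library. Itgb1 transcript was thus not the scarcer chain in any of these pairs.

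The other 2 pairs were Itgav with Itgb5 and Itgav with Itgb3. Itgav and Itgb5 were nearly equal, with a mean ratio of beta to alpha of 1.03, and Itgav was the lower of them in 5 of 10 libraries. Itgb3 was the lower chain of its pair in all 10 libraries. The summed RPKM of Itgb3, Itgb5, Itgb6 and Itgb8 was 1.15 ± 0.0963 times that of Itgav. Both ratios rest on the deposited exon lengths, 10744 bases for Itgav and 3362 bases for Itgb5. The transcripts with the longest coding part have 7054 and 3056 bases. With those lengths Itgav would rise by more than Itgb5, so the order of Itgav and Itgb5 depends on the length used.

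Pairs not allowed fell into a few kinds. Itgav with Itgb8 reached 1 RPKM for both chains in 1 library, and Itga2 with Itgb1 and Itga4 with Itgb7 in 2 libraries each. Itga6 with Itgb4, the hemidesmosome integrin, reached it in 0 libraries, with Itgb4 at 0.0352 times Itga6. The Itgb2 pairs with Itgal, Itgax, Itgad and Itgam_1, and the platelet pair of Itga2b with Itgb3, each reached it in 0 libraries.

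**Figure D2:**
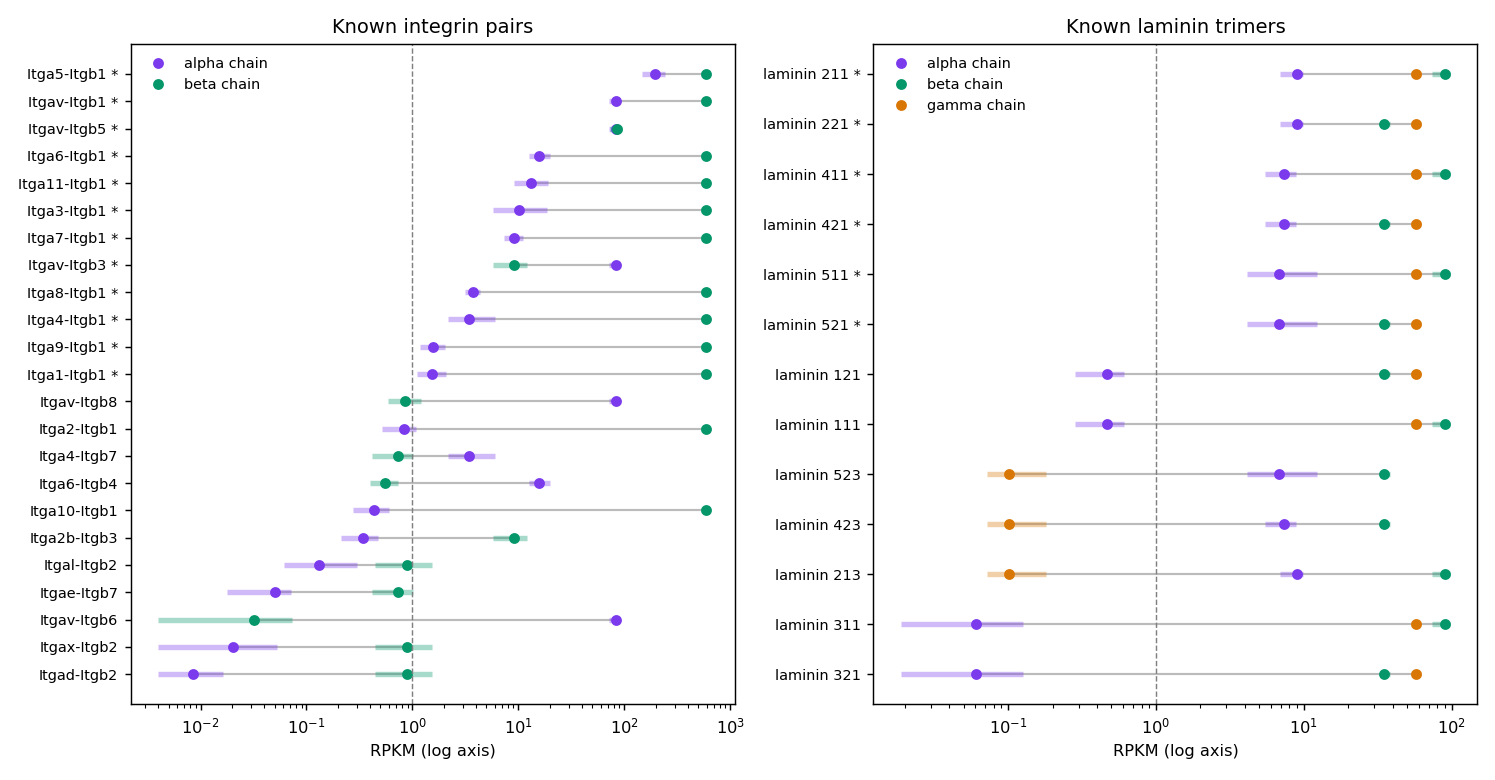
RPKM on a log axis of each chain (points, mean of 10 libraries; pale bars, lowest to highest library) of 23 known integrin pairs and 13 laminin trimers, ordered by the scarcest chain; an asterisk marks those with every chain at or above 1 RPKM (dashed line) in every library, and the pair with Itgam_1 is not drawn. In the 10 allowed pairs with Itgb1 the alpha point lies left of the beta point, and in the 6 allowed trimers the alpha chain is the lowest.

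The 6 laminin trimers were 211, 221, 411, 421, 511 and 521, where the digits give the alpha, beta and gamma chain. In each of the 6 the alpha chain was the lowest of the 3 in all 10 libraries. Summed over each class, Lamb RPKM was 5.34 ± 0.719 times and Lamc RPKM 2.52 ± 0.299 times Lama RPKM, and Lamb1 was 2.60 ± 0.288 times Lamb2 (SD, n = 10). These ratios rest on the deposited exon lengths, and other lengths would change them. Lamb1 has 9917 bases there and 5784 in the transcript with the longest coding part, against 6082 and 5629 for Lamb2. Laminins 111 and 121 were limited by Lama1, 213, 423 and 523 by Lamc3, and 311 and 321 by Lama3, each in all 10 libraries.

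The comparison of females with males asked which genes differ between the sexes. No integrin or laminin gene was called: edgeR's quasi-likelihood test with Benjamini-Hochberg adjustment over 16602 genes called 15 genes (0.0904%; 8 of them, 0.0482% of all genes, lower in females) and 0 of the 34 members tested. Itgax and Itgad had too few reads for the test. Without adjustment 6 members had p under 0.05, all lower in females, where 5.55% of all genes passed in either direction 3.49% passed as lower and 2.05% as higher in females. Of the 34 members, 24 had a fold change below 0 (47.9% of all genes did), and their median log2 fold change was -0.09 against 0.00 over all genes. No member had sexes that did not overlap in unique gene reads scaled to library size (0.976% of all genes did), and 1 member, Lamb3, had sexes that did not overlap in exon RPKM (1.19% of all genes did).

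The Lama5 values by library, given above, had means of 4.91 ± 0.778 RPKM in females and 8.78 ± 2.63 RPKM in males (SD, n = 5 each). Its log2 fold change was -0.84 ± 0.20 (SE), with an edgeR quasi-likelihood p of 0.00173 and an adjusted p of 0.448, the smallest among the members. The call depended on the tool. DESeq2 gave Lama5 an adjusted p of 0.000606 and called 63 genes (0.368%), with Lama5 the only member among them. In the authors' deposited table Lama5 was 1.79 times lower in females at a false discovery rate of 0.000938, the only member among 82 genes (0.156%) under 0.05. Without males 3 and 5, left out because they were the highest and hence bound to narrow the gap, the log2 fold change was -0.52 (edgeR adjusted p = 0.934). With the deposited exon lengths, Lama5 gave 22.8 ± 3.25% of the summed Lama RPKM in females and 33.5 ± 7.88% in males.

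Itga3 had means of 7.66 ± 1.49 RPKM in females and 12.6 ± 4.82 RPKM in males, and its highest libraries were also males 5 and 3. Its log2 fold change was -0.72 ± 0.26 (edgeR adjusted p = 0.766), and -0.30 without males 3 and 5 (edgeR adjusted p = 1.0). Itga1 stood at 1.12, 1.16, 1.69, 1.51 and 1.24 RPKM in females and at 1.55, 1.55, 2.07, 2.03 and 1.41 RPKM in males, with a log2 fold change of -0.37 ± 0.13 (edgeR adjusted p = 0.715). Females 1, 2 and 5 were below all males for Itga1. Pelo, a gene inside Itga1, held unique exon reads equal to 9.62% of those of Itga1.

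The other 3 members with small unadjusted p were below 1 RPKM. Lamb3 stood at 0.159, 0.116, 0.0981, 0.122 and 0.123 RPKM in females and at 0.178, 0.225, 0.237, 0.313 and 0.283 RPKM in males, with 18 to 47 unique exon reads a library. Lama3 stood at 0.0476, 0.0189, 0.0392, 0.0523 and 0.0566 RPKM in females and at 0.0573, 0.0968, 0.126, 0.0684 and 0.0433 RPKM in males, with 6 to 31 unique exon reads a library. Itgb8 stood at 0.866, 0.870, 0.664, 0.880 and 0.592 RPKM in females and at 1.21, 0.746, 0.972, 0.821 and 0.881 RPKM in males. All males were above all females for Lamb3, and the sexes overlapped for Lama3 and Itgb8. The log2 fold changes were -0.69 ± 0.22 for Lamb3, -0.56 ± 0.24 for Lama3 and -0.33 ± 0.15 for Itgb8, with edgeR adjusted p of 0.613, 0.835 and 0.882. Hsd11b1, which overlaps Lamb3, held unique exon reads equal to 13.8% of those of Lamb3.

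**Figure D3:**
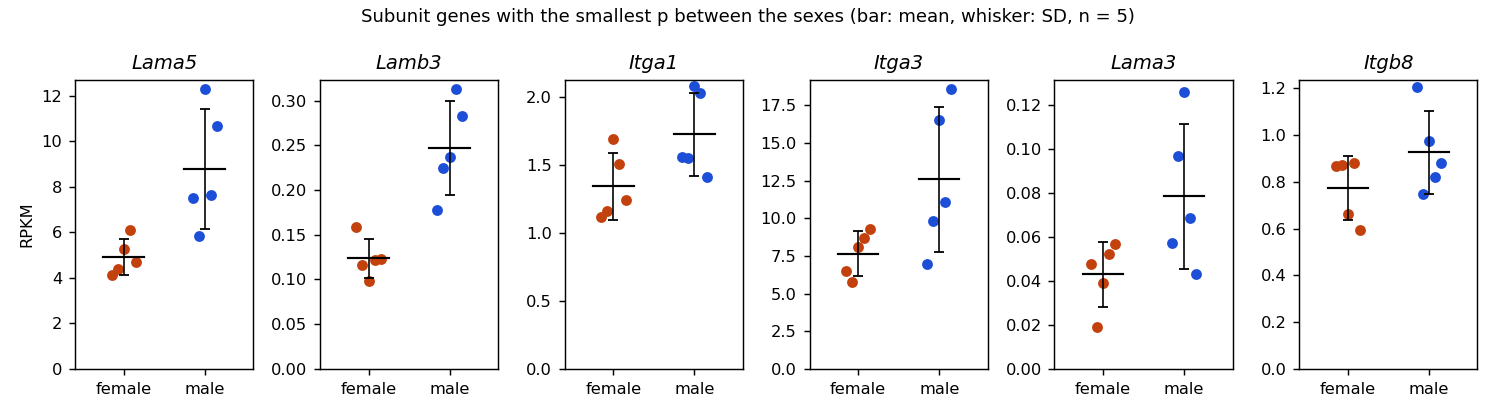
RPKM of the 6 members with the smallest unadjusted p between the sexes, in each female (orange) and male (blue) library, with the mean (bar) and SD (whisker) of 5 libraries and each axis starting at 0. Lama5 lies at 4.12 to 6.08 RPKM in females and 5.82 to 12.3 RPKM in males, and 2 male libraries lie apart at the top for both Lama5 and Itga3.

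Across the libraries, sex aside, the subunit genes fell along a shared order that was noticed after the values had been seen. Itga11, Itgb3 and Itga4 had the same 3 highest libraries, female 2, male 1 and female 1, and all were low in males 3 and 5, where Itga6 and Itga3 were highest. Itga4 stood at 4.36, 6.05, 3.25, 3.25 and 2.31 RPKM in females and at 5.02, 3.03, 2.17, 2.90 and 2.16 RPKM in males. The spread was wide for Itga4 and Itga3 and small for Lamc1, whose log2 ratio to its own mean stayed between -0.10 and 0.12.

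All 190 pairs of the 20 genes were correlated over the 10 libraries as log2 RPKM, with two-sided permutation p-values adjusted by the Benjamini-Hochberg method over the 190. By Pearson's r, 17 pairs had an adjusted p under 0.05, 9 of them positive and 8 negative, and 5 of the 17 also passed by Spearman's rho. A count over pairs of all genes is not given here, so the 17 are not read as a trait of the subunit genes. The count fell to 2 without female 2, to 8 without male 2 and to 9 without male 1 or without female 1. Taken as deviations from the mean of each sex, 15 of the 17 passed. For 7 of the 17 the unadjusted permutation p rose above 0.05 once the 2 libraries farthest from the median were left out. Libraries are the points here, and all genes of a library share its RNA and its scaling.

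Itga11 and Itgb3 were the most alike (r = 0.97, permutation p = 3e-05, adjusted 0.0057; rho = 0.98, adjusted 0.0095; n = 10). Their r was 0.97 without the 2 farthest libraries, 0.98 within females and 0.97 within males. Itga6 and Itga3, both laminin receptor chains, varied together (r = 0.93, permutation p = 0.00029, adjusted 0.0122; rho = 0.85, adjusted 0.079), with r = 0.78 without the 2 farthest libraries. Itga6 ran against Itgb3 (r = -0.93, permutation p = 0.00024, adjusted 0.0122; rho = -0.88, adjusted 0.0579) and against Itga4 (r = -0.92, permutation p = 0.00032, adjusted 0.0122; rho = -0.90, adjusted 0.0266). Itga5 also ran against Itga4 (r = -0.88, permutation p = 0.00063, adjusted 0.0171; rho = -0.77, adjusted 0.136).

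Itga3 and Lama5, a receptor chain and the laminin chain its pair binds, had r = 0.85 (permutation p = 0.00197, adjusted 0.0288; rho = 0.79, adjusted 0.136; n = 10). Without the 2 farthest libraries r was 0.54 over the 8 left (permutation p = 0.166), so the relation no longer passed. Nor did it pass as deviations from the mean of each sex (r = 0.76, adjusted permutation p = 0.0713). Known partners, the pairs of chains that join in 1 integrin or 1 laminin, were not among the 17: of 23 such pairs with both genes in the 20, 0 passed and 5 had an unadjusted permutation p under 0.05. Their median r was 0.15, against 0.05 for the other pairs, a difference that was not tested.

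**Figure D4:**
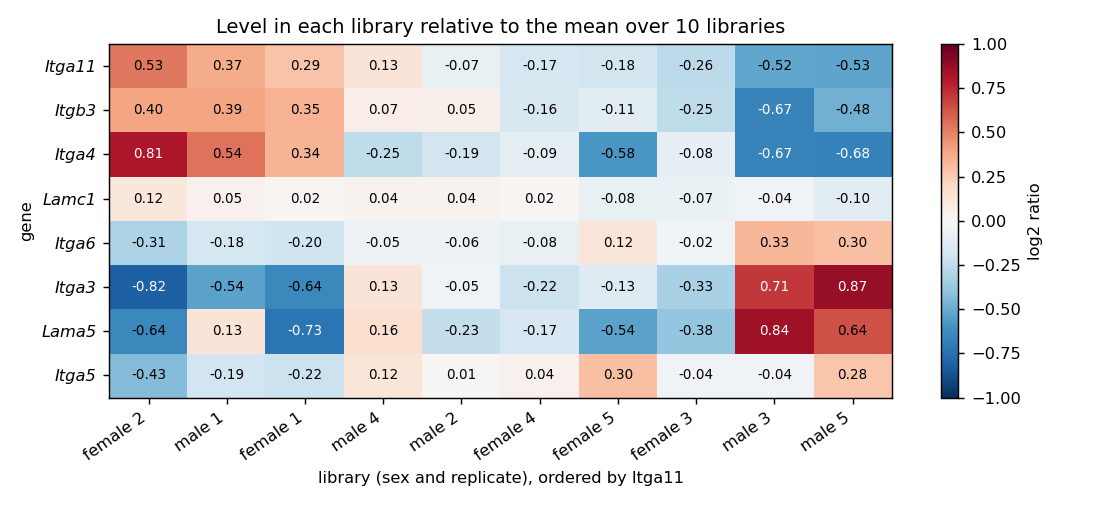
Log2 ratio of the RPKM in each library to the mean of 10 libraries for 8 subunit genes, with libraries ordered by Itga11 from highest (left) to lowest (right); red is above and blue below the mean, and the number in each cell is the ratio. Itga11, Itgb3 and Itga4 go from red to blue from left to right, Itga6 and Itga3 from blue to red, and Lamc1 stays near 0.

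Sums of marker lists moved with this order, in 30 relations computed after the pattern was seen (6 genes, 5 measures). The summed RPKM of the epithelial list gave r = -0.95 with Itga4 (permutation p = 5e-05, adjusted 0.00105; rho = -0.99, adjusted 0.0009; n = 10) and r = 0.93 with Itga3 (permutation p = 7e-05, adjusted 0.00105; rho = 0.93, adjusted 0.0027). Without the 2 farthest libraries r was -0.97 and 0.85. The sum was almost entirely Krt19 (50.8 RPKM) and Krt18 (8.40 RPKM), 3 of the 8 genes reached 1 RPKM, and the defining markers Epcam and Cdh1 had 0.0998 and 0.0374 RPKM. The sum ranged from 45.2 to 66.7 RPKM in females and from 47.6 to 85.3 in males, with males 5 and 3 highest at 85.3 and 71.4. Krt19 was also highest in males 5 and 3 (74.6 and 62.9 RPKM), and so was Krt7 (1.87 and 2.18 RPKM). Krt18 and Krt8 did not share this order and were lowest in male 3 (5.59 and 0.387 RPKM). Krt18 was highest in female 1, where the sum was 49.1 RPKM. The relations thus hold for a sum led by Krt19 and not for every gene of the list. The part of single list genes in the pattern was not tested.

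The summed RPKM of the fibroblast list ran the other way, with r = 0.92 for Itga11 (permutation p = 0.0003, adjusted 0.00222; rho = 0.95, adjusted 0.0015; n = 10; 0.85 without the 2 farthest libraries) and r = 0.90 for Itgb3 (permutation p = 0.0007, adjusted 0.0035; rho = 0.96, adjusted 0.00105; 0.85 without them). For Itga4 and Itga6 it gave r = 0.82 and -0.80 (adjusted permutation p = 0.0161 and 0.0171; rho = 0.70 and -0.85, adjusted 0.0987 and 0.015), and over the 8 libraries left without the 2 farthest r was 0.63 and -0.63 (permutation p = 0.0953 and 0.0942). The list sum was 5600 to 6779 RPKM in females and 5595 to 6519 in males. Most of it came from Vim (2711 RPKM), Col1a1 (1407 RPKM) and Fn1 (1144 RPKM). Pdgfra, Dcn and Lum had only 7.90, 7.85 and 2.06 RPKM, so they hardly entered the sum. For the macrophage list, the number of unique gene reads and the share of intron reads, 0 of the 18 relations passed, and the smallest unadjusted permutation p among them was 0.119. Lama5 passed with none of the 5 measures, and its r with the epithelial list was 0.66 (permutation p = 0.039, adjusted 0.117).

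Subunit genes known from other cell types were set beside the markers of those cells in 5 relations. Itgb2 varied with the summed RPKM of 12 macrophage markers (r = 0.85, permutation p = 0.00166, adjusted 0.0083; rho = 0.87, adjusted 0.0111; n = 10), which ranged from 41.1 to 107 RPKM in females and from 49.9 to 77.9 in males. Without the 2 libraries farthest from the median r was 0.68 over the 8 left (permutation p = 0.0635), and leaving out 1 library gave 0.79 to 0.97. The macrophage sum, 65.5 RPKM on average, was mostly Lyz2 (39.7 RPKM), while Adgre1, Mrc1 and Ptprc had 0.755, 0.535 and 0.164 RPKM. The part of single macrophage markers in this relation was not tested. Itgam_1 with the macrophage list (r = 0.60), Itga7 with the skeletal muscle list (r = -0.30), Itgb4 with the epithelial list (r = 0.24) and Lama4 with the endothelial list (r = 0.19) had adjusted permutation p-values of 0.156, 0.616, 0.616 and 0.616. The muscle sum was mostly Acta1 (48.2 RPKM) and Des (32.0 RPKM), with Myod1 at 0.0201 RPKM. The endothelial sum was mostly Flt1 (6.80 RPKM) and Kdr (3.51 RPKM), with Pecam1 at 0.0326 RPKM. These sums hardly reflect the defining markers, and which cells Itga7 and Lama4 came from was not tested.

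Related genes were taken from 4 lists with 63 genes in all, of which 62 were tested, and edgeR's quasi-likelihood test called 0 of them between the sexes (smallest adjusted p 0.553, for Sdc4). Unadjusted, 6 had p under 0.05. Of 25 adaptor and activator genes at the inner face of integrins, 22 reached 1 RPKM in every library, led by Actn1 (415 RPKM), Actn4 (301 RPKM) and Tln1 (158 RPKM), the actin crosslinkers and the talin that ties integrins to actin. Their median log2 fold change was 0.01, with Tns1 at 0.14 and Tns2 at -0.20 among those with unadjusted p under 0.05.

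Of 10 basement membrane partners 9 reached 1 RPKM in every library, led by Sparc (925 RPKM), Col4a1 (261 RPKM) and Col4a2 (237 RPKM), the collagen IV chains. Their median log2 fold change was -0.03, and Nid2, which links laminin to collagen IV, had -0.36 ± 0.12 (edgeR adjusted p = 0.654). The 16 integrin ligands were led by Thbs1 (2912 RPKM), Col1a1 (1407 RPKM) and Fn1 (1144 RPKM); 14 reached 1 RPKM in every library, 0 of the 15 tested had an unadjusted p under 0.05, and their median was -0.03. Of 12 membrane partners and other laminin receptors 11 reached 1 RPKM in every library, led by the tetraspanins Cd81 (159 RPKM) and Cd63 (145 RPKM) and by Rpsa (112 RPKM). The transcript level alone does not show that Rpsa acts as a laminin receptor here. Dag1 of the same list had 42.9 RPKM. Sdc4, a syndecan that acts with the fibronectin receptor, had 29.8 ± 1.76 RPKM in females and 42.2 ± 10.1 in males, a log2 fold change of -0.50 ± 0.14 that did not pass. The share of all genes called was 0.0904%, and a count of 0 among 62 does not set these lists apart from it.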

How the data were processed

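The files hold reads per gene for 10 libraries (NEBNext directional kit, Illumina NextSeq, per the labels' protocols). The authors deposited raw counts of unique gene reads, exon reads and intron reads per gene and library on mm10, per the submitters' processing notes. The aligner, counter, annotation release and strand setting were not given in the sources used here. Deposited beside the counts are the authors' signed fold, a score that is below 0 where males were higher, and the false discovery rate (an adjusted p-value) of their own test with tagwise dispersions, per the file headers. Another 120 columns of per-library values were not used.

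Fold changes are female minus male, from unique gene reads with edgeR 4.0.16 (R 4.3.3): filterByExpr with a minimum count of 10, TMM scaling, robust quasi-likelihood fit on sex, Benjamini-Hochberg adjustment over all genes tested, threshold 0.05. Libraries held 30662616 to 45859721 unique gene reads. RPKM came from unique exon reads and the deposited exon lengths. Correlations used log2(RPKM + 0.01) and 100000 permutations (numpy 2.4.6), whose smallest p is 1e-05. Gene spans were checked against GENCODE M21, where 33 of 36 members had the same span; Itgb5, Itgb7 and Lama1 had another. Of spans that overlap a member, only those with reads that bear on a value are named.

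A laminin chain gene is counted among the members but not reported here, nor are the trimers that hold it. The members, marker lists and related lists were chosen with earlier results of these data known. Values in every library are given for the first 6 alpha, 5 beta and 6 laminin genes by mean RPKM that reach 1 RPKM, for the 6 members with the smallest p, and for Itga4, which was chosen after its values were seen. Itgam was planned for a relation and was replaced by the entry Itgam_1. Alternatives were other scalings, filters, read types and length, DESeq2 1.42.0, a replicate block and leaving out each library. On simulated counts for the female against male comparison (16355 genes) the fit called 26% of genes changed 1.25-fold, 74% at 1.5-fold, 86% at 2-fold and 100% at 4-fold, while 4.7% of the calls fell on genes left unchanged.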

Additional observations from a re-analysis of the deposited data

Results flagged for a closer look

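Among 46 groups of 5 libraries, 1 for each sex and each of the 23 genes examined, 2 held a library far from the other 4, and chance alone gives about 2.3. Lamb1 in female replicate 5 was 88.5 RPKM, while the other females lay between 92.5 and 93.5 RPKM. Itgav in male replicate 5 was 73.6 RPKM, while the other males lay between 85.8 and 86.4 RPKM.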

How the results depend on the processing

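The numbers of integrin pairs (10 to 14) and laminin trimers (6 throughout) stayed within 1.5 times of the values given under all 16 alternatives, including lengths from the transcript with the longest coding part, chosen after seeing the data. The log2 fold changes of the 6 members with the smallest p kept their sign in every setting. The number of genes called was 15 and rose to 30 with no filter on low counts, 43 with a replicate block and 63 with DESeq2; leaving out 1 library gave 12 to 36, the highest without male replicate 1. The replicate block called 1 member, Itga1 (adjusted p = 0.0288), DESeq2 called 1 (Lama5), and leaving out 1 library called 0. The block also called Nid2 of the related lists (adjusted p = 0.0288). The numbers were not taken to pair the libraries, since nothing in the labels ties them. Of the 5 same-numbered correlations of deviations (0.0425 to 0.241, all positive), 3 were under 0.1. As a hint that they may pair, 6 of 10 libraries were closest to their own number among the 5 of the other sex. The relation of Itgb2 with the macrophage list lost its call without the 2 farthest libraries (r = 0.68, adjusted p = 0.317), with a replicate block (r = 0.69, adjusted p = 0.116), without female replicate 2 (r = 0.79) and without female replicate 5 (r = 0.79); leaving out 1 library gave 0.79 to 0.97. Itga7 with the muscle list turned to r = 0.15 without the 2 farthest libraries, was -0.76 (adjusted p = 0.0436) without male replicate 3, and ranged from -0.76 to -0.10 with 1 library left out. Lama4 with the endothelial list turned to r = -0.0698 without the 2 farthest libraries and ranged from -0.0599 (without female replicate 5) to 0.31 with 1 library left out. In relations chosen after seeing the data, the 17 correlated gene pairs became 9 without male replicate 1, 8 without male replicate 2, 9 without female replicate 1 and 2 without female replicate 2, and 14 to 24 with unique gene reads, no TMM scaling or deviations from the mean of each sex. With fewer libraries the permutations have less reach; the cause of the other changes was not tested. Members with under 50 reads a library, such as Lamb3 and Lama3, are limited by depth.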
